A study of Mus musculus with 9 samples.

Results

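The miR-15/16 seed family was followed through sRNA-seq libraries of mouse Meis1/Hoxa9 preleukemic cells with and without the terminal uridylyltransferases TUT4 and TUT7. The 6 miRNAs described, out of 817 listed, were chosen by name: mmu-miR-15a-5p, mmu-miR-15b-5p, mmu-miR-16-5p, mmu-miR-322-5p and mmu-miR-503-5p, which share a seed, and mmu-miR-15b-3p, the partner strand of miR-15b-5p, which does not. Together they held 5069 reads, between 0.111% and 0.262% of the miRNA reads of a library. All 6 had at least 1 read, although miR-15a-5p and miR-322-5p had too few for any comparison between genotypes.

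The cells were c-Kit-enriched fetal liver cells from mice on a C57BL/6 background, transduced with retroviral Meis1 and Hoxa9 and grown with Stem Cell Factor, IL-6 and IL-3. Both groups carried floxed alleles of both genes, Tut4 fl/fl and Tut7 fl/fl. The 4 Tut4/7 cKO libraries also carried Vav-iCre, a Cre recombinase expressed in hematopoietic cells, and the 5 Tut4/7 CTL libraries, whose genotype is labelled WT, came per the methods of the study from littermates without it and are called the controls here. The methods state in general that replicates of the mouse experiments came from different animals or embryos, and the labels do not tie a library to an animal or a transduction. Tut4 and Tut7 mRNA are not measured by these libraries, so the genotype was not checked directly, and the labelled cell type has no mRNA markers in these data.

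miRNAs guide Argonaute proteins to mRNAs through the seed, a short stretch near the 5′ end that pairs with the target, and members of a seed family can therefore recognize overlapping sets of targets. The miR-15/16 family is known for repression of cell cycle regulators and of the survival factor BCL2, and loss of the miR-15a/16-1 cluster is a recurrent lesion of chronic lymphocytic leukemia. TUT4 and TUT7 add uridines to the 3′ end of RNAs, including let-7 precursors and mature miRNAs, and in sequencing reads an added uridine appears as a T.

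The mature sequences are shown first, since the seed defines the family and the 3′ end decides how added Ts can be read. They are the RefSeq entries of assembly GRCm38.p6, 5′ to 3′, with bases 2 to 8 in capitals.
miR-15a-5p: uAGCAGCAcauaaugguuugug
miR-15b-5p: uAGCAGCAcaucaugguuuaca
miR-16-5p: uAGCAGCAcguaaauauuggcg
miR-322-5p: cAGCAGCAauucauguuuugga
miR-503-5p: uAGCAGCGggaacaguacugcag
miR-15b-3p: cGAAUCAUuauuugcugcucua

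The first 4 shared bases 2 to 8. miR-503-5p shared bases 2 to 7 and differed at base 8, and miR-15b-3p had an unrelated seed. miR-15a-5p and miR-15b-5p were identical at 18 of 22 positions, the closest pair of the family, and differed in the 3′ part. No read of any member also matched another mature sequence of the family or of the 786 listed miRNAs with a known sequence. Reads were thus not split between near-identical members. Of the 11 mature miRNAs in RefSeq with the same bases 2 to 7, only miR-497a-5p was listed besides the 5 members, with 1 read.

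Each mature sequence was located in GRCm39, and the bases that follow it on its strand were read from the genome, since a read that continues into a genomic T cannot be told apart from a read with an added T. The mature sequence is in lower case and the next 3 genomic bases are in capitals.
miR-15a-5p, Mir15a, chr14:61869524-61869545, minus strand: tagcagcacataatggtttgtgGAT
miR-16-5p, Mir16-1, chr14:61869385-61869406, minus strand: tagcagcacgtaaatattggcgTTA
miR-15b-5p, Mir15b, chr3:68917108-68917129, plus strand: tagcagcacatcatggtttacaTAC
miR-15b-3p, Mir15b, chr3:68917146-68917167, plus strand: cgaatcattatttgctgctctaGAA
miR-16-5p, Mir16-2, chr3:68917251-68917272, plus strand: tagcagcacgtaaatattggcgTAG
miR-322-5p, Mir322, chrX:52143183-52143204, minus strand: cagcagcaattcatgttttggaGTA
miR-503-5p, Mir503, chrX:52142904-52142926, minus strand: tagcagcgggaacagtactgcagTGA

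Mir15b and Mir16-2 lie in an intron of the protein-coding gene Smc4, a condensin subunit. Mir15a overlaps an annotated exon, and Mir16-1 an intron, of the lncRNA gene Dleu2. Mir322 and Mir503 overlap exons of the lncRNA gene Mir503hg. The mature miR-16-5p has 1 sequence and 2 loci, and its reads cannot be assigned to either. miR-15b-5p, miR-16-5p and miR-503-5p are followed by a genomic T, at both loci in the case of miR-16-5p, and miR-15a-5p, miR-322-5p and miR-15b-3p are not.

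Library depth ranged from 209702 to 316620 miRNA reads in the controls and from 175462 to 479342 in Tut4/7 cKO. In each group 1 library stood apart in the share of all its miRNA reads that ended in added Ts. Replicate 2 by label of the Tut4/7 CTL group had 10.8%, below the other controls (14.4% to 24.8%) and within the range of Tut4/7 cKO. The library labelled Tut4/7 cKO replicate 1, the shallowest of all, was at 19.3%, above the other Tut4/7 cKO libraries (7.55% to 12.1%) and above 4 of the 5 controls. Whether either library is mislabelled or holds a mixture of cells was not tested, and both labels were kept. Results on uridylation of the members are given with and without them.

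miR-15b-5p was the most abundant member, and neither it nor any other tested member passed the test for a change of abundance. CPM are counts of a miRNA scaled to the total of its library, with the TMM factors of edgeR. The mature sequences are 22 or 23 bases long, so levels are compared between members without a length correction. Abundance was tested with edgeR in 205 miRNAs, of which 1 was lower in Tut4/7 cKO at an adjusted p under 0.05 (0.488%) and 0 were higher, against 31 at an unadjusted p under 0.05. Of the 6 members, 4 passed the filter on low counts, and 0 of these 4 were called, either by edgeR or by DESeq2. The median log2 fold change of these 4 was −0.15, beside −0.01 over all 205.

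miR-15b-5p stood at 1688, 1205, 1135, 1277 and 511 CPM in Tut4/7 CTL replicates 1 to 5 and at 1181, 894, 1121 and 1388 CPM in Tut4/7 cKO replicates 1 to 4. The groups overlapped widely, and the lowest value of all belonged to Tut4/7 CTL replicate 5. The means were 1163 ± 423 (SD, n = 5) and 1146 ± 203 CPM (SD, n = 4), and miR-15b-5p ranked 63 and 65 among the listed miRNAs. The log2 fold change was −0.02 (SE 0.36, 95% interval −0.82 to 0.78, edgeR adjusted p = 0.982), so changes of up to 1.71-fold higher or down to 0.567 of the control level lie within the interval.

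miR-16-5p, the other abundant member, was tightly grouped in Tut4/7 CTL at 554, 524, 502.9, 541 and 511 CPM. In Tut4/7 cKO it was spread over 259, 361, 413 and 661 CPM. Replicates 1 to 3 of Tut4/7 cKO lay below every control library and replicate 4 above all of them. The means were 526 ± 20.9 and 424 ± 171 CPM, with a log2 fold change of −0.31 (SE 0.31, interval −0.999 to 0.38, edgeR adjusted p = 0.698). Without Tut4/7 cKO replicate 4 the log2 fold change was −0.70 (edgeR adjusted p = 0.119), the lowest adjusted p among 14 alternatives, which reached up to 0.842.

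miR-503-5p, from the X-linked cluster, stood at 121, 260, 168, 161 and 109 CPM in the controls and at 54.6, 141, 153 and 181 CPM in Tut4/7 cKO. The groups overlapped except for the low first Tut4/7 cKO library. The log2 fold change was −0.28 (SE 0.39, interval −1.15 to 0.58, edgeR adjusted p = 0.785), and −0.05 without that library (edgeR adjusted p = 0.936).

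miR-15b-3p, the less abundant strand of the miR-15b hairpin, varied most among the tested members. It stood at 4.47, 26.4, 55.9, 10.5 and 63.9 CPM in the controls and at 0, 40.8, 22.8 and 113 CPM in Tut4/7 cKO. These values rest on 0 to 45 reads per library. The log2 fold change was 0.50 (SE 0.86, interval −1.41 to 2.41, edgeR adjusted p = 0.804), and it turned to −0.55 without Tut4/7 cKO replicate 4.

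miR-322-5p had 2 to 10 reads per library and miR-15a-5p 0 to 4. Their mean levels were 14.0 ± 5.6 and 14.2 ± 7.13 CPM for miR-322-5p, and 6.26 ± 5.11 and 3.65 ± 2.96 CPM for miR-15a-5p, controls first. Both fell below the minimum of 10 reads in 4 libraries, and a difference between genotypes was not detectable at this depth. When all listed miRNAs were tested without a filter, the log2 fold changes were −0.02 for miR-322-5p (edgeR adjusted p = 0.982) and −0.62 for miR-15a-5p (edgeR adjusted p = 0.755).

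**Figure D1:**
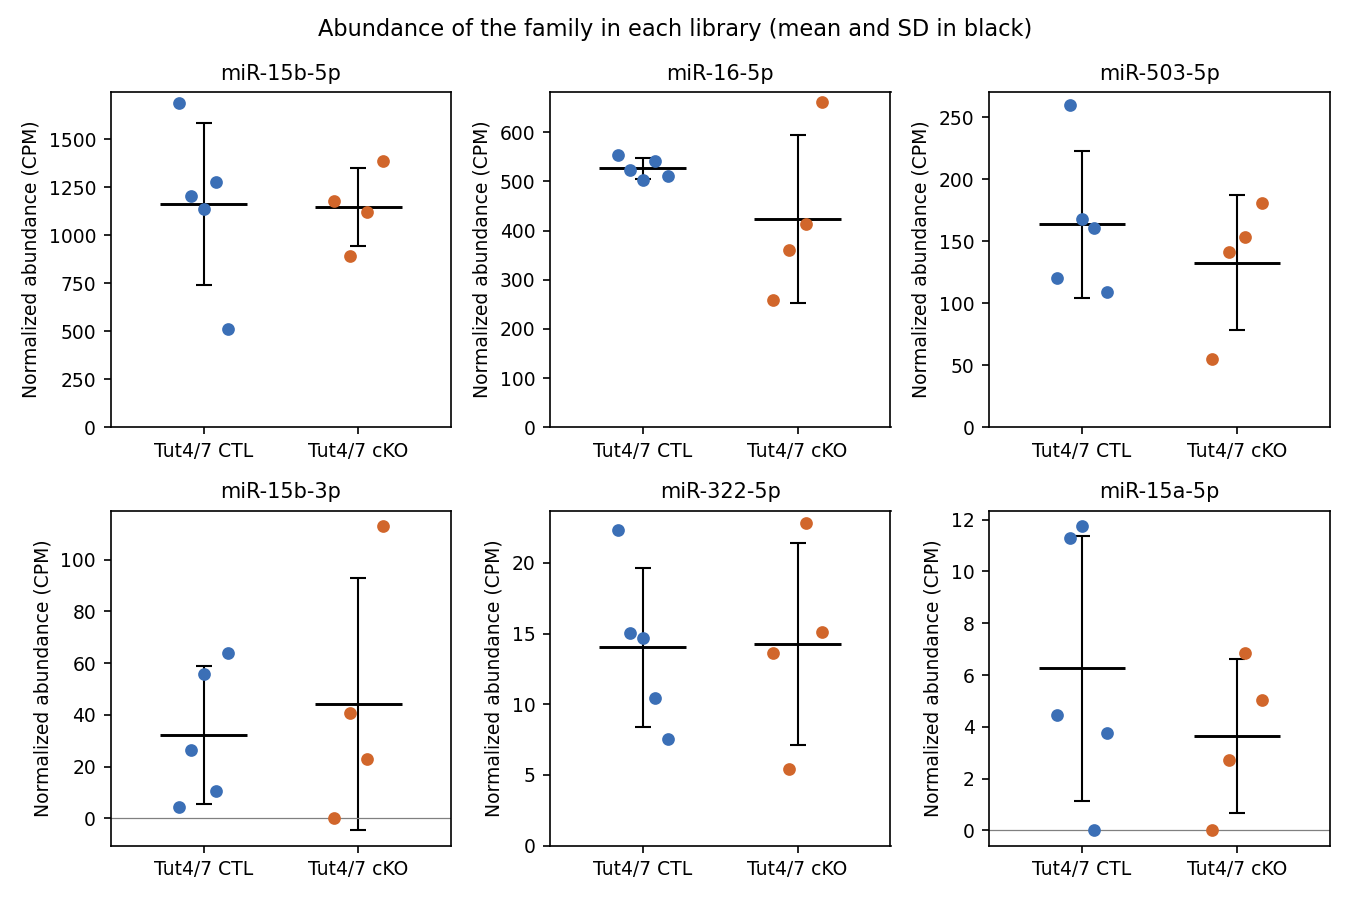
Normalized abundance (CPM) of the 6 miRNAs in each library, with 1 point per library in the order of the replicate numbers, and black bars for the mean and SD of 5 Tut4/7 CTL and 4 Tut4/7 cKO libraries; each panel has its own scale. The groups overlap in every panel, miR-16-5p is tightly grouped only in Tut4/7 CTL (502.9 to 554 CPM), and 1 Tut4/7 CTL library is low for miR-15b-5p (511 CPM).

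The order of levels was miR-15b-5p, miR-16-5p, miR-503-5p, miR-15b-3p, miR-322-5p and miR-15a-5p in both genotypes. miR-16-5p and miR-503-5p were separated in both groups, with no overlap between libraries. miR-15b-5p and miR-16-5p were separated in Tut4/7 cKO but not in Tut4/7 CTL, where replicate 5 held 136 reads of each. miR-503-5p and miR-15b-3p were separated in the controls and overlapped in Tut4/7 cKO. The last 3 overlapped with each other in both genotypes. miR-15b-5p made up between 42.4% and 78.3% of the family's reads in a library.

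As a description over the 9 libraries, log2 CPM of miR-16-5p and miR-503-5p had a Pearson r of 0.71, whereas that of miR-15b-5p and miR-16-5p, which share the Smc4 intron at 1 locus, was 0.17, and that of miR-15b-5p and miR-15b-3p, from the same hairpin, was −0.40. Among the tested miRNAs outside the members, the profile most like that of miR-16-5p was miR-24-2-5p (r = 0.97), followed by miR-532-5p (0.96). The profile most like that of miR-503-5p was miR-322-3p (0.88), from the neighbouring hairpin, followed by miR-185-5p (0.84). The nearest for miR-15b-5p were miR-29a-3p (0.81) and miR-27a-3p (0.81), and for miR-15b-3p they were miR-3473b (0.80) and miR-338-5p (0.75). These coefficients share the libraries and their scaling.

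The balance of strands was tested as the odds of a 5p against a 3p read in 46 hairpins, of which 1 was lower in Tut4/7 cKO (2.17%) and 0 were higher by edgeR. The 5p strand of miR-15b made up 99.7%, 97.9%, 95.3%, 99.2% and 88.9% of reads in the controls, and 100%, 95.6%, 98.0% and 92.5% in Tut4/7 cKO. The hairpin thus gave mostly its 5p strand in every library, with a log2 odds ratio of −0.27 (SE 0.97, edgeR adjusted p = 0.889). The miR-503 hairpin leaned toward its 3p strand. Its 5p share was 37.4% ± 5.30 (SD, n = 5) in the controls and 31.0% ± 9.79 (SD, n = 4) in Tut4/7 cKO, with a log2 odds ratio of −0.39 (SE 0.46, edgeR adjusted p = 0.817). In miR-322 the 5p strand, the one with the family seed, was the minor product, with 19 reads to 107 of the 3p strand in the controls and 20 to 68 in Tut4/7 cKO. Its shares were 15.4% ± 5.49 and 27.4% ± 17.1 per library, and it had too few reads for the test.

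The 5′ end, which places the seed, was uniform. All reads of miR-15a-5p, miR-15b-3p, miR-322-5p and miR-503-5p began at the first mature base, and 1 of 3131 reads of miR-15b-5p and 3 of 1340 reads of miR-16-5p began elsewhere. Variation was at the 3′ end, where the most frequent end was shared by some members and differed between others. The most frequent read of the 4 members tested is given as deposited, 5′ to 3′ with T for U, and any added T in capitals, together with the tailed reads of miR-16-5p and miR-503-5p.
miR-15b-5p, mature: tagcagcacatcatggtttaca
miR-16-5p, 1 base short: tagcagcacgtaaatattggc
miR-16-5p, mature: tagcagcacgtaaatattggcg
miR-16-5p, 1 added T: tagcagcacgtaaatattggcgT
miR-16-5p, 2 added Ts: tagcagcacgtaaatattggcgTT
miR-503-5p, 3 bases short: tagcagcgggaacagtactg
miR-503-5p, 1 added T: tagcagcgggaacagtactgcagT
miR-15b-3p, 1 base short: cgaatcattatttgctgctct

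miR-15b-5p most often ended at the mature end, with 65.9% ± 3.67 of reads in the controls and 65.2% ± 13.5 in Tut4/7 cKO. Most of the rest were 1 base short. miR-16-5p was most often 1 base short, with 43.3% ± 3.55 in the controls and 54.1% ± 4.58 in Tut4/7 cKO, ahead of the mature end with 31.5% ± 1.20 and 25.9% ± 4.58. miR-503-5p rarely reached the mature end at all. The 3-base-short form made up 73.1% ± 10.0 and 71.4% ± 12.9 of its reads, and over all libraries 89.5% of its reads lacked 3 or more bases.

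Set beside the 190 miRNAs with enough reads for the comparison, 123 (64.7%) most often ended at the mature end, as miR-15b-5p did. Another 36 (18.9%) were most often 1 base short, as were miR-16-5p and miR-15b-3p, and 4 (2.11%) were most often 3 bases short, miR-503-5p among them. Most reads were 3 or more bases short in 9 of the 190. The partner strand miR-503-3p, from the same hairpin, was short in 7.36% of reads, compared with 95.6% for miR-503-5p.

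**Figure D2:**
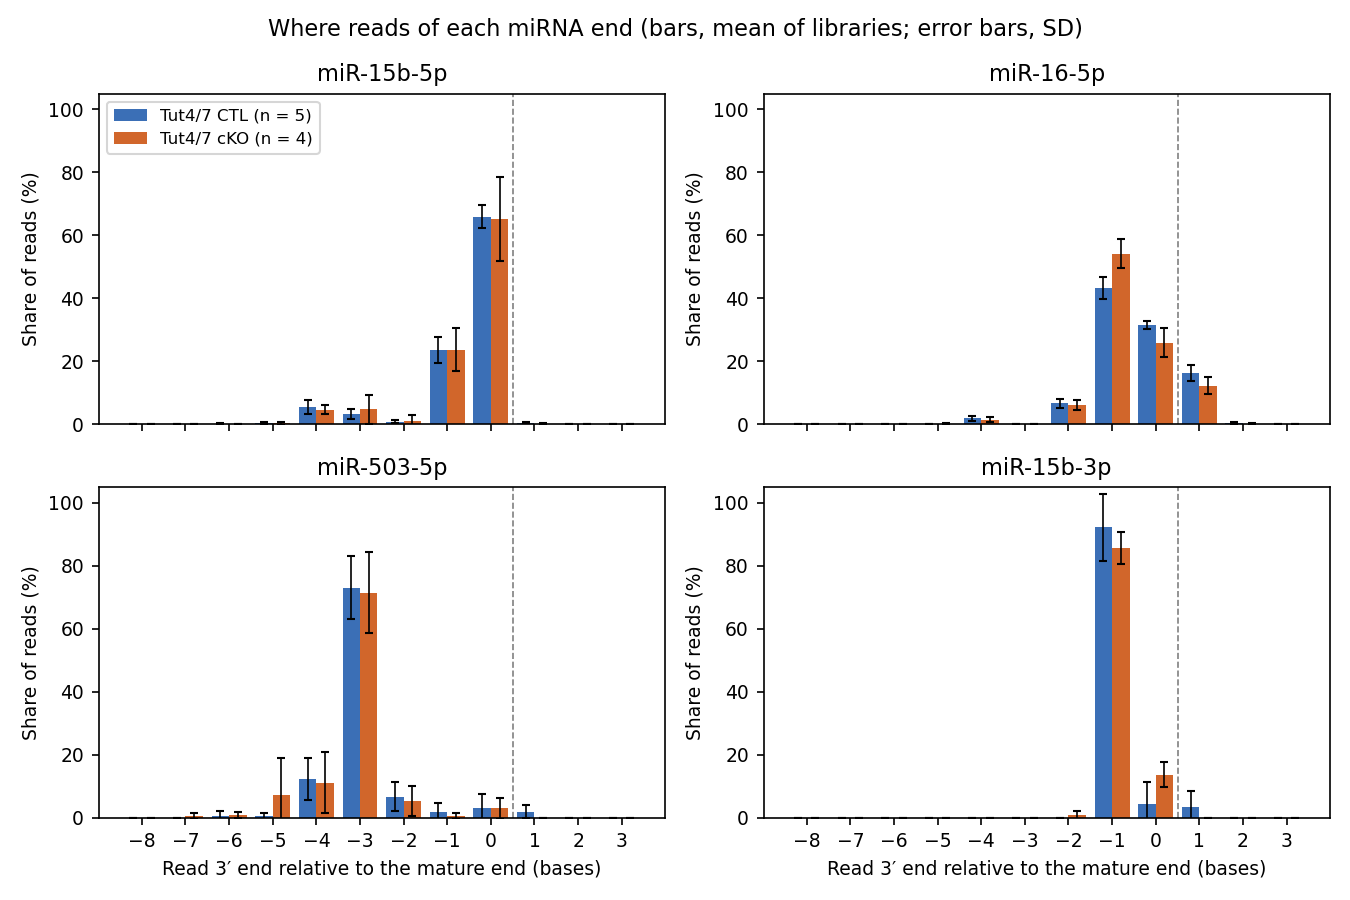
Share of reads (%) by the position of the read's 3′ end, in bases from the mature end, for 4 members; bars are means over 5 Tut4/7 CTL and 4 Tut4/7 cKO libraries, error bars are SD, and ends to the right of the dashed line lie in added Ts. miR-15b-5p peaks at the mature end, miR-16-5p and miR-15b-3p 1 base before it and miR-503-5p 3 bases before it, and among these 4 only miR-16-5p has more than 10% of its reads past the mature end.

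Shortened reads of miR-16-5p were more frequent in every Tut4/7 cKO library than in any Tut4/7 CTL library. They made up 53.2%, 56.8%, 49.7%, 49.0% and 50% of reads in the controls and 60.5%, 66.2%, 61.3% and 58.6% in Tut4/7 cKO. The groups did not overlap, which held for 14 of the 190 tested miRNAs in this direction (7.37%). The log2 odds ratio of a shortened read was 0.58 (SE 0.23, interval 0.08 to 1.09), with an unadjusted p of 0.0271 in edgeR, a level that 16.3% of the 190 reached in this direction. It did not pass after adjustment (edgeR adjusted p = 0.225), nor in any of 12 alternatives (0.108 to 0.503). Reads with added Ts count among the reads that are not shortened, so fewer tails alone raise the shortened share. Against reads ending at the mature end alone, the log2 odds ratio of miR-16-5p was 0.52 (SE 0.23, edgeR adjusted p = 0.343). By edgeR, 9 miRNAs (4.74%) had more shortened reads in Tut4/7 cKO and 0 had fewer. The median log2 odds ratio over all 190 was 0.28, and the same over the 4 members was also 0.28.

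The shortened share of the other members did not pass the test. miR-15b-5p was shortened in 34.9%, 36.6%, 29.5%, 37.4% and 29.4% of reads in the controls and in 23.1%, 28.3%, 33.0% and 54.0% in Tut4/7 cKO. Replicates 1 to 3 of Tut4/7 cKO lay within or below the range of the controls and replicate 4 far above it. The log2 odds ratio was 0.03 (SE 0.37, edgeR adjusted p = 0.989), and −0.37 without that library, which also had the highest share of shortened reads over all miRNAs, 29.8% against 17.9% to 24.5% in the other 8. The part of that library's overall state in these values was not tested. miR-503-5p was shortened in 87.7% to 100% of reads in every library (log2 odds ratio 0.52, SE 0.82, edgeR adjusted p = 0.821), and miR-15b-3p in 78.9% to 100% in the 8 libraries that held a read of it (−0.09, SE 0.63, edgeR adjusted p = 0.989).

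Uridylation of the family was almost all in miR-16-5p, which gave 191 of its 209 reads with added Ts, and no tested member passed the test for a loss in Tut4/7 cKO. Reads that ran past the mature end, into 1 to 3 Ts, were counted as uridylated. Uridylation was tested as the odds of such a read in 143 miRNAs, of which 85 were lower in Tut4/7 cKO (59.4%) and 0 higher by edgeR. Of the members, 3 could be tested, miR-16-5p, miR-15b-5p and miR-503-5p, and 0 of these were called. At an unadjusted p under 0.05 in edgeR the count of members was also 0, beside 87 of the 143 miRNAs, all lower in Tut4/7 cKO. With a quasi-binomial model, which called 64.3% of the 143, the count of members was 2, miR-16-5p (adjusted p = 0.0211) and miR-503-5p (adjusted p = 0.0362). All 3 tested members are followed by a genomic T. Among the 63 tested miRNAs with that feature 30 were called (47.6%), compared with 55 of the 80 without it (68.8%).

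miR-16-5p ended in added Ts in 16.9%, 12.2%, 18.7%, 18.1% and 17.6% of reads in the controls, and in 15.8%, 12.0%, 12.7% and 9.13% in Tut4/7 cKO. The groups overlapped only through Tut4/7 CTL replicate 2, and the groups of 34.3% of the 143 miRNAs did not overlap at all in this direction. The means were 16.7% ± 2.59 (SD, n = 5) and 12.4% ± 2.74 (SD, n = 4). The fitted odds in Tut4/7 cKO were 0.677 of those in Tut4/7 CTL, a log2 odds ratio of −0.56 (SE 0.41, interval −1.44 to 0.31, edgeR adjusted p = 0.248). The interval thus holds both no change and a fall to 0.369 of the control odds. Of the pooled reads, 122 of 725 were uridylated in the controls and 69 of 615 in Tut4/7 cKO, a ratio of shares of 1.5 with an exact interval of 1.11 to 2.05 that covers counting error only.

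Without Tut4/7 CTL replicate 2, miR-16-5p stood at 17.8% ± 0.746 (SD, n = 4) in the remaining controls, between 16.9% and 18.7%, above all 4 Tut4/7 cKO libraries. The log2 odds ratio was then −0.72 (edgeR adjusted p = 0.0733). Without Tut4/7 cKO replicate 1, which was the highest of its group, it was −0.66 (edgeR adjusted p = 0.253). Both libraries were singled out by their uridylated shares, the first low and the second high. Leaving either out therefore widens the difference in miR-16-5p by construction and is no separate evidence of a loss. With Tut4/7 CTL replicate 2 left out, 83 of 143 miRNAs had groups that did not overlap (58%), and 69.9% were called by edgeR.

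Ordered by fitted change from the largest fall, miR-16-5p stood at 120 of 143, miR-15b-5p at 99 and miR-503-5p at 73. With the 25 miRNAs that had no uridylated read in any Tut4/7 cKO library placed at their limit from 3 counts, the median log2 odds ratio was −1.82 over all 143, −1.27 over the 63 followed by a genomic T, −2.35 over the other 80, and −0.56 over the 3 members. Without those bounds, the fitted medians were −2.84 over all 143 and −1.20 over the members. Whether miR-16-5p differs from the other miRNAs was not tested.

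**Figure D3:**
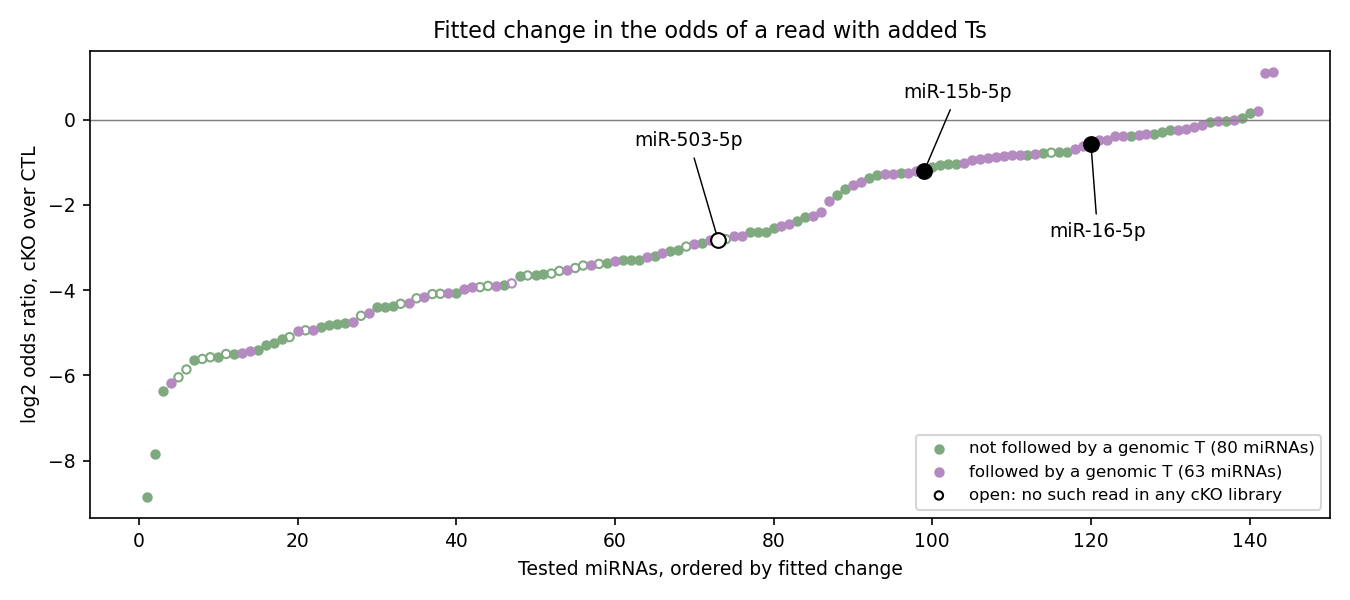
Fitted log2 odds ratio of a read with added Ts, Tut4/7 cKO over Tut4/7 CTL, for the 143 tested miRNAs ordered from the largest fall, coloured by whether a genomic T follows the mature sequence; open circles mark miRNAs with no such read in any Tut4/7 cKO library, whose fitted value depends on the prior count. The 3 tested members, in black, lie at 73 (miR-503-5p, open), 99 (miR-15b-5p) and 120 (miR-16-5p).

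Nearly all tails of miR-16-5p were a single T. Reads with exactly 1 added T made up 16.3% ± 2.42 in the controls and 12.3% ± 2.73 in Tut4/7 cKO (log2 odds ratio −0.55, SE 0.40, edgeR adjusted p = 0.253), beside 81 of 139 miRNAs called lower (58.3%). Reads with 2 added Ts numbered 3 in the controls and 1 in Tut4/7 cKO, and none had 3. The corresponding log2 odds ratio was −1.01 (SE 1.43, edgeR adjusted p = 0.503), beside 50 of 67 miRNAs called lower (74.6%). The genome continues with 2 Ts after Mir16-1 and with 1 T after Mir16-2.

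The uridylated share of miR-16-5p was also taken over the reads that reached the mature end alone. It was then 36.2%, 28.3%, 37.2%, 35.4% and 35.3% in the controls and 40.0%, 35.6%, 32.9% and 22.0% in Tut4/7 cKO. The groups overlapped on this scale, the highest and the lowest library both being Tut4/7 cKO. The means were 34.5% ± 3.53 and 32.6% ± 7.65, and the log2 odds ratio against reads ending exactly at the mature end was −0.23 (SE 0.42, edgeR adjusted p = 0.658), where 78 of 143 miRNAs were called lower (54.5%). This reference class was chosen after the data were seen.

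miR-15b-5p was rarely uridylated although it was the most abundant member. It had 1, 1, 3, 2 and 1 such reads in the controls and 1, 0, 1 and 1 in Tut4/7 cKO. That is 8 of 1586 reads (0.504%, exact 95% interval 0.218% to 0.992%) and 3 of 1545 (0.194%, 0.0401% to 0.566%), a ratio of 2.60 with an exact interval of 0.623 to 15.2. The log2 odds ratio was −1.20 (SE 0.81, interval −2.91 to 0.52, edgeR adjusted p = 0.217), with a range of 0.0977 to 0.407 over 16 alternatives, among them 0.162 without Tut4/7 CTL replicate 2 and 0.148 without Tut4/7 cKO replicate 1. The shares of miR-16-5p and miR-15b-5p, which are neighbours in the Smc4 intron and both followed by a genomic T, were 16.8% and 0.504% of pooled control reads. Both mature sequences hold consecutive Ts, and a T added to a read that stops among them matches the mature sequence and is not counted. Of the 3131 reads of miR-15b-5p, 154 were 4 bases short and 10 were 5 bases short, while 1987 ended at the mature end. A T added to a read 4 bases short would end 3 bases short, as 51 control and 89 Tut4/7 cKO reads did. The part of such uncounted Ts in the difference was not tested.

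miR-503-5p had 1, 0, 1, 2 and 0 uridylated reads in the controls and none in any of the 4 Tut4/7 cKO libraries. That is 4 of 228 reads (1.75%, exact interval 0.480% to 4.43%) against 0 of 199, with an exact upper limit of 1.84%. The exact lower limit of the ratio of these shares was 0.576, so counting error alone leaves room for no difference, and the edgeR adjusted p was 0.0952 (0.105 without Tut4/7 cKO replicate 1). It passed in 2 of 16 alternatives, the quasi-binomial model and without Tut4/7 CTL replicate 2 (edgeR adjusted p = 0.0273), and otherwise missed the threshold, up to 0.253. That library held 0 uridylated reads of its 69, so leaving it out raises the control share by construction. Only 12 of the 228 control reads and 7 of the 199 Tut4/7 cKO reads of miR-503-5p reached the mature end, where tails are counted.

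miR-15b-3p, which no genomic T follows, had 3 uridylated reads of 47 in Tut4/7 CTL, in replicates 3 and 5. In Tut4/7 cKO it had 0 of 70, with an exact upper limit of 5.13%. It had such reads in too few control libraries for the test. No read of miR-15a-5p, of 9 and 6, or of miR-322-5p, of 19 and 20, ended in added Ts. The exact upper limits, controls first, were 17.6% and 16.8% for miR-322-5p and 33.6% and 45.9% for miR-15a-5p. Uridylation of these members was thus not measurable at this depth.

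**Figure D4:**
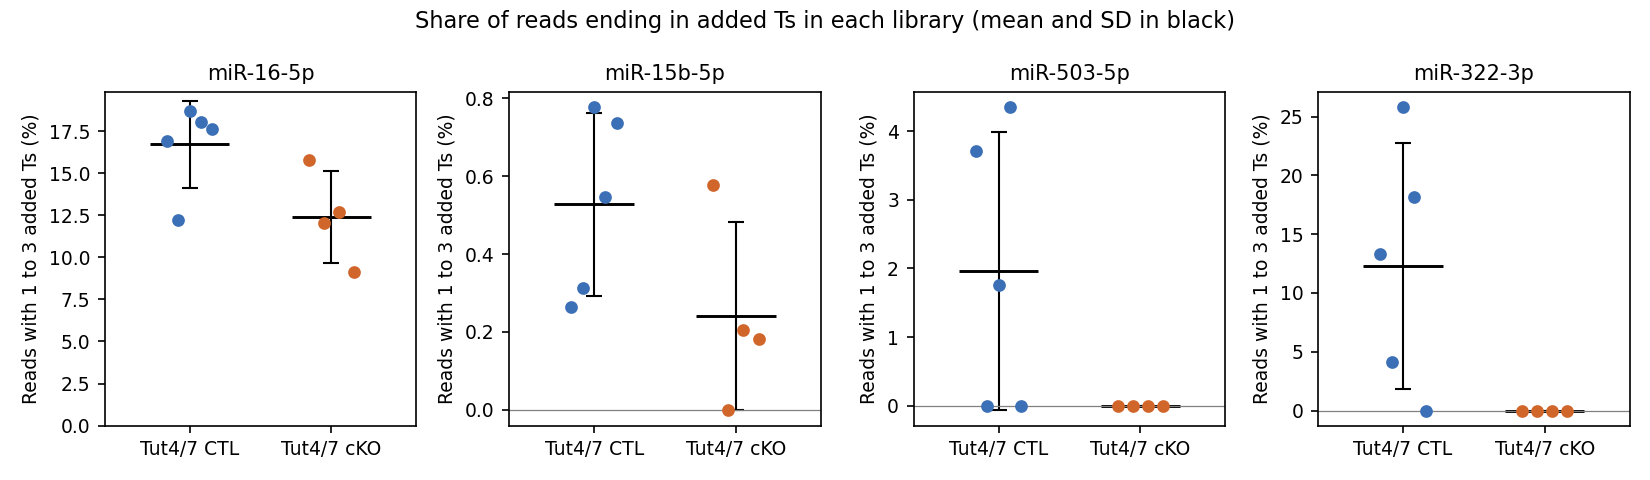
Share of reads (%) that end in 1 to 3 added Ts in each library, for miR-16-5p, miR-15b-5p, miR-503-5p and the partner strand miR-322-3p, with 1 point per library and black bars for the mean and SD of 5 Tut4/7 CTL and 4 Tut4/7 cKO libraries; each panel has its own scale. miR-16-5p stands at 9.13% to 15.8% in Tut4/7 cKO, while miR-503-5p and miR-322-3p have no such read in any Tut4/7 cKO library.

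The other strands of the family's hairpins and the neighbours in the X-linked cluster were listed for comparison. Of 5 partner strands, 2 had enough reads for the abundance test, miR-322-3p and miR-503-3p, and 0 changed in edgeR. Their log2 fold changes were −0.72 (SE 0.41, edgeR adjusted p = 0.415) and 0.08 (SE 0.30, edgeR adjusted p = 0.916). Of 9 cluster neighbours, which belong to the miR-351, miR-450 and miR-542 hairpins, 3 could be tested and 0 changed. Their log2 fold changes ranged from −0.41 (miR-351-3p) to 0.14 (miR-450a-5p).

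Uridylation was called lower in Tut4/7 cKO in all 3 of these miRNAs that could be tested, beside 85 of all 143 tested (59.4%). Entry to this test required tailed reads in 3 or more controls, with no such rule for Tut4/7 cKO. The 3 calls thus come only from miRNAs with tails in the controls, and their count is no separate evidence. The neighbour miR-450a-5p could not enter, with 0 tailed reads of 57 in the controls and 0 of 65 in Tut4/7 cKO. miR-322-3p, the major strand of the miR-322 hairpin, had 2, 1, 8, 4 and 0 uridylated reads in the controls and none in Tut4/7 cKO. In shares of reads this was 13.3%, 4.17%, 25.8%, 18.2% and 0% in the controls. The 15 of 107 control reads (14.0%, exact interval 8.06% to 22.1%) stood against 0 of 68, with an exact upper limit of 5.28%. The edgeR adjusted p was 0.0241, and the call held in 12 of 16 alternatives. It was lost without Tut4/7 CTL replicate 3 (edgeR adjusted p = 0.0640) and without Tut4/7 cKO replicate 2, 3 or 4 (0.0510, 0.0599 and 0.0656). miR-351-5p and miR-351-3p, the 2 cluster neighbours tested, were both lower. miR-351-5p, which no genomic T follows, had 1122 of 3437 reads with added Ts in the controls and 2 of 2857 in Tut4/7 cKO (log2 odds ratio −8.84, SE 1.11, edgeR adjusted p = 1.73e-05). Its control shares were 28.4%, 3.29%, 33.8%, 41.2% and 47.6%, with Tut4/7 CTL replicate 2 again the lowest, and the call held in all 17 alternatives.

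miR-351-3p is followed by a genomic T. It had 40 of 128 reads with added Ts in the controls and 1 of 86 in Tut4/7 cKO (log2 odds ratio −4.53, SE 0.93, edgeR adjusted p = 0.000676). Of the 63 tested miRNAs followed by a genomic T, 30 were called lower by edgeR (47.6%). The median log2 odds ratio over these 63, with bounds, was −1.27. miR-503-3p, which no genomic T follows, had 8 of 373 such reads in the controls and 0 of 401 in Tut4/7 cKO. Its 8 reads came from replicates 3 and 4 alone, with 3 and 5 reads, which was too few libraries for the test. In Tut4/7 cKO the exact upper limits of the pooled uridylated share were 5.28% for miR-322-3p, 0.253% for miR-351-5p, 6.31% for miR-351-3p and 0.916% for miR-503-3p. The share of miR-16-5p was 11.2% (exact interval 8.83% to 14.0%). These limits pool the reads of the 4 Tut4/7 cKO libraries and cover counting error only. Why the shares differ between miRNAs was not tested. The partner strand of miR-16-5p, miR-16-1-3p, had 2 of 30 such reads in the controls and 1 of 22 in Tut4/7 cKO, too few to compare.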

How the data were processed

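Libraries of small RNA from Meis1/Hoxa9 cells (5 controls, 4 knockouts) were prepared with the NEBNext small RNA kit, without molecular identifiers. Per the labels and methods, the authors trimmed adapters with cutadapt 5.0 and mapped reads with Bowtie 1.3.1, without mismatches, to miRBase mature sequences (release not given in the sources used here) extended by 3 Ts. The authors deposited raw counts per miRNA and per distinct read sequence, with a mark on reads past the mature end; this mark differed from the coordinates in 0 cases. A T added to a shortened read is seen only where the mature sequence has a T at that place.

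edgeR 4.0.16 in R 4.3.3 was used on the counts of all listed miRNAs, with Benjamini-Hochberg adjustment and a threshold of 0.05. Abundance used TMM scaling, glmQLFit and glmQLFTest and a genotype term alone, where 4 or more libraries held 10 or more reads. Uridylation, single Ts, 2 or 3 Ts, shortened ends and strand balance were tested as the interaction of read class with genotype, with a term per library. Entry required 10 or more reads in 5 or more libraries and, for tails, a tailed read in 3 or more controls. Strand balance required 10 reads of both strands in 4 libraries. SE is the log2 value divided by the square root of F. Fitted values of miRNAs without a read of the class in Tut4/7 cKO depend on the prior count, so 3 counts set their bound. Ratios of pooled shares have exact binomial intervals (SciPy 1.17.1), which cover counting error only. The code was tested on simulated data.

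Of the 817 miRNAs, 786 were located in GRCm39, with sequences from RefSeq or the reads, and host genes were taken from GENCODE. Alternatives comprised DESeq2 1.42.0, other scaling, filters and reference classes, a quasi-binomial model, a replicate block and omission of each library. The members and lists were chosen with earlier results of these data known. The miRNAs named are the 6 members, their partner strands, cluster neighbours with enough reads, other miRNAs sharing bases 2 to 7, and the 2 with the most similar log2 CPM profile per member. No batches are given in the labels.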

Additional observations from a re-analysis of the deposited data

Results flagged for a closer look

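Among 21 groups of 4 or 5 values examined for the members, 1 held a value far from the rest, and chance alone places about 1 in 20 groups in that position. It was the uridylated share of miR-16-5p in the library labelled Tut4/7 CTL replicate 2, 12.2% of 139 reads, while the other 4 Tut4/7 CTL libraries lay between 16.9% and 18.7%. The same library was the lowest Tut4/7 CTL library in uridylated reads over all miRNAs, at 10.8%, and in miR-351-5p, at 3.29%. In miR-15b-5p it was not the lowest, with 0.313% against 0.265% in replicate 1.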

How the results depend on the processing

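Of the recomputed values for members and their hairpins, 197 kept their direction and side of the threshold, 17 turned in direction and 4 passed the threshold only in the alternative: miR-16-5p and miR-503-5p uridylation with the quasi-binomial model, and miR-503-5p uridylation and single Ts without Tut4/7 CTL replicate 2. No other alternative changed a call on a member.

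The counts over all miRNAs moved more. Abundance had 1 lower and 0 higher miRNAs, compared with 5 and 6 by DESeq2, 8 and 10 without a filter, 0 lower with 10 reads in all 9 libraries, and 0 to 1 in either direction with 1 library left out (0 lower without Tut4/7 CTL replicate 3 or any 1 Tut4/7 cKO library, 1 higher without Tut4/7 CTL replicate 2). Uridylation had 85 lower, 56 when miRNAs followed by a genomic T were left out before adjustment, and 61 to 100 with 1 library left out. The same ranges were 62 to 97 for single Ts and 36 to 56 for 2 or 3 Ts. Shortened ends had 9 higher, 5 at a minimum of 50 reads, 2 against reads at the mature end, and 2 to 11 with 1 library left out (5 without Tut4/7 cKO replicate 2, 3 without Tut4/7 cKO replicate 1, and 2 without any other library than Tut4/7 CTL replicate 2). Strand balance had 1 lower hairpin, 0 at a minimum of 50 reads, 0 to 1 lower and 0 to 2 higher with 1 library left out (1 lower only without Tut4/7 CTL replicate 2 or Tut4/7 cKO replicate 4, 2 higher without the latter).

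The values that turned were as follows. In abundance, miR-15b-5p was at 0.0205 by DESeq2 and 0.0204 with DESeq2 size factors, and −0.33 to 0.15 with 1 library left out, and miR-15b-3p at −0.55 to 0.84. In shortened ends, miR-15b-5p ranged from −0.37 to 0.27, miR-15b-3p from −0.57 to 0.22 and miR-503-5p from −0.25 to 1.27, with −0.0445 against reads at the mature end. Strand balance of miR-15b ranged from −0.94 to 0.33. The causes were not tested.

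The labels do not say whether libraries of the same replicate number were paired. Such libraries correlated in their deviations at −0.02, −0.16, 0.42 and −0.14 for replicates 1 to 4. The library of the same number was the closest match only for replicate 3. A single correlation per number cannot decide whether the samples were paired. With a replicate block, 0 miRNAs were lower in abundance, 73 in uridylation, 71 in single Ts, 37 in 2 or 3 Ts, 3 higher in shortened ends and 0 hairpins lower in strand balance, and shortened miR-15b-5p was at −0.0295. No call on a member changed. Depth limits miR-15a-5p and miR-322-5p, with 15 and 39 reads in all.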
